A study of Homo sapiens with 96 samples.

Results

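Of the 96 RNA-seq libraries of a series on A549 cells, the 6 described here were made from cells that received vehicle alone. They were chosen by their labels, without regard to any measured value: 3 libraries carry the label Batch2 vehicle and 3 carry the label Batch1 vehicle. In the same series, Batch2 also holds cells given an ingredient of Paeoniae Radix, a peony root used in medicine (Albiflorin, Benzoic acid, Catechin, Gallic acid, Hederagenin, Oleanolic acid, Paeoniflorin or Paeonol), and Batch1 holds cells given a water or an ethanol extract of that root. No source used here gives the kind of vehicle or the exposure time, and the labels do not say what sets a batch apart (a passage, a day, a flow cell). Batch and anything else that differed between these cells therefore cannot be told apart. Nothing in the labels says that replicates came from separate cultures, so the p-values below cover the spread of the libraries only, and that spread may be technical.

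A549 is an established human line from a lung adenocarcinoma. It is widely used as a model of the alveolar type II cell, the surfactant-making cell of the alveolus, although cultures are known to keep few of that cell's products. The line is known for a defective KEAP1, which normally targets the transcription factor NRF2 for degradation, and for a deletion that removes CDKN2A. Carcinoma lines of this kind can move between an epithelial state, held by cadherin and keratin junctions, and a mesenchymal state driven by TGF-beta signalling and the SNAI and ZEB repressors.

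The deposited values are expected counts per gene. Totals were 24.2, 25.2 and 25.3 M in the Batch2 vehicle libraries and 26.9, 20.5 and 23.9 M in the Batch1 vehicle libraries, and 23867, 23804 and 23782 genes had a count in Batch2, against 23363, 22819 and 22921 in Batch1. All mitochondrial genes together, their ribosomal RNAs included, took 14.5, 14.8 and 14.9% of the counts in Batch2 and 20.5, 16.9 and 22.1% in Batch1. The means were 14.7 ± 0.222% and 19.8 ± 2.64% (SD, n = 3 each). The ranges did not overlap (exact permutation test over libraries, two-sided, p = 0.1, the smallest that 3 against 3 allows). Over the whole series, totals ran from 15.7 to 35.6 M, and 18 of the 96 libraries stood apart by a mitochondrial share under 5% or by at least 100 CPM of COL1A2, a fibroblast collagen. None of the 6 vehicle libraries was among them.

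Levels were compared between genes as TPM, which divides each gene's count by its exon length and scales every library to the same total. Comparisons between batches use CPM (a count scaled by the TMM-adjusted library size, to the same total in each library), because TPM of every nuclear gene moves with the mitochondrial share. Of 56996 genes with a length, 13814 had a median of at least 1 TPM. The list of the 20 highest was dominated by the mitochondrial genome. MT-CO2, a subunit of cytochrome c oxidase, came first with a median of 45401 TPM, followed by MT-CO1 with 38777, the large mitochondrial ribosomal RNA MT-RNR2 with 38527, MT-CO3 with 38467, MT-ATP6 of the ATP synthase with 35210 and the complex I subunit MT-ND4 with 34621 TPM. MT-ATP8, MT-ND1, MT-ND2, MT-CYB, MT-ND4L, MT-ND6, MT-ND3 and MT-ND5 also stood in the list, between 24174 and 8147 TPM.

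The nuclear genes in the list of 20 were FTL, ALDH1A1, ACTB, KRT81 and GAPDH, beside MTATP6P1. FTL, the light chain of ferritin, the iron store of the cell, had a median of 18330 TPM and averaged 20065 ± 299 TPM in Batch2 and 16757 ± 170 TPM in Batch1 (SD, n = 3 each). Compared in CPM, FTL was not called between the batches (Batch2 minus Batch1, log2 0.04 ± 0.05, SE, edgeR adjusted p = 0.522). ALDH1A1, the retinaldehyde dehydrogenase, followed with a median of 6067 TPM and the cytoskeletal actin ACTB with 5896 TPM. KRT81, a hair-type keratin, had a median of 5464 TPM and the glycolytic enzyme GAPDH 5369 TPM. MTATP6P1 is a nuclear copy of mitochondrial sequence and shares reads with it, so its 6174 TPM is uncertain.

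Below these came FTH1, the ferritin heavy chain (4951 TPM), TMSB10, an actin-binding thymosin (4647 TPM), the actin ACTG1 (4249 TPM) and the ribosomal proteins RPS16 and RPS2 (3990 and 3415 TPM). AKR1B10, an aldo-keto reductase under NRF2 control, had 3285 TPM, the keratins KRT7 and KRT18 had 3176 and 2418 TPM, the tubulin TUBA1B 3136 TPM, ANXA2 of the membrane skeleton 2557 TPM and IGFBP4, a secreted binder of insulin-like growth factors, 2545 TPM. Of the 20 highest genes, 19 were shared with the list made from Batch2 alone and 19 with the list made from Batch1 alone. Ranking by CPM without length kept 15 of the 20.

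The position of these cells among lung lineages was read from marker lists. TPM values here and in the lineage paragraphs that follow describe levels. Their offsets between batches are not read as differences, which are given further below in CPM. The surfactant proteins that define the alveolar type II cell were at or near the floor. SFTPA1 had no count in any of the 6 libraries, which allows up to 0.0205 CPM. Summed over 3 libraries, SFTPC had 4 counts in Batch2 and 0 in Batch1, SFTPB 3 and 1, SFTPD 4 and 8, and the lung lineage factor NKX2-1 3 and 1. The lamellar body gene LAMP3 had 12 and 13 counts and the phosphate transporter SLC34A2 5 and 6. Other type II genes had more signal, and some of these also serve other cells. NAPSA, of the same list, had 0.651, 0.678 and 1.13 TPM in Batch2 and 1.41, 1.27 and 0.861 TPM in Batch1. LPCAT1, a phospholipid acyltransferase, averaged 33.5 TPM in Batch2 and 28.1 TPM in Batch1, the ERK-responsive factor ETV5 31 and 27.6 TPM, the protease CTSH 10.8 and 9.99 TPM and the lipid transporter ABCA3 9 and 9.29 TPM. In all, 6 of the 15 type II genes in the table passed the filter on low counts. Across the 5 surfactant protein genes, the sum over the 3 libraries of a batch never passed 8 counts.

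Markers of the other lung cell types were mixed, with several defining genes near the floor and other list members above it. The type I genes PDPN, HOPX and CLIC5 had 0, 0 and 0 counts in Batch2 and 1, 1 and 0 in Batch1, while CAV1, which many cells make, averaged 227 TPM in Batch2 and 213 TPM in Batch1, the membrane protein EMP2 26.3 and 17.1 TPM and the receptor AGER 1.92 and 2.68 TPM. Club cell secretoglobins were at 0 counts in Batch2, and in Batch1 SCGB1A1 had 3 counts and SCGB3A1 and SCGB3A2 had 0, whereas the mucins of the same list, MUC5AC and MUC5B, are described below. The basal keratins KRT5 and KRT14 had 1 and 1 counts in Batch2 and 4 and 2 in Batch1, although the basal factors TP63 and SOX2 were detected, at 4.43 and 17.5 TPM in Batch2 and 2.93 and 10.7 TPM in Batch1. The ciliated cell regulator FOXJ1 stood at 0.415 TPM in Batch2 and 0.235 TPM in Batch1, and TPPP3 of the same list at 3.78 and 2.16 TPM. Among neuroendocrine genes INSM1 and NEUROD1 had no count. UCHL1, a ubiquitin hydrolase of neurons that many tumour lines express, had 610, 591 and 609 TPM in Batch2 and 538, 564 and 518 TPM in Batch1.

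Broad epithelial and endodermal genes were expressed. The simple keratins KRT7, KRT18 and KRT8 averaged 3198, 2760 and 1534 TPM in Batch2 and 2809, 1850 and 937 TPM in Batch1. The cell adhesion molecules CDH1 and EPCAM were far lower, at 19.1 and 6.04 TPM in Batch2 and 12.3 and 4.19 TPM in Batch1. The epithelial splicing and junction regulators ESRP1, ESRP2 and GRHL2 had 14, 15 and 4 counts in Batch2 and 10, 6 and 0 in Batch1. Vimentin (VIM), the mesenchymal intermediate filament, averaged 1014 TPM in Batch2 and 1011 TPM in Batch1, so that keratins and vimentin stood side by side. Whether the same cells carried both cannot be told from bulk RNA, in which fewer cells of a type and less RNA per cell cannot be told apart.

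Transcription factors of foregut endoderm were present without NKX2-1. FOXA2 averaged 65.9 TPM in Batch2 and 51.8 TPM in Batch1, the hepatic and intestinal nuclear receptor HNF4A 36 and 29.3 TPM and FOXA1 31.3 and 18.7 TPM. Of the secreted products of liver, the fibrinogen chains FGB, FGG and FGA reached 274, 202 and 135 TPM in Batch2 and 113, 84.5 and 58 TPM in Batch1. Albumin (ALB) had 1 count in each batch and APOB had 1 count in Batch2 and 0 in Batch1. Of airway mucins, MUC5AC averaged 67.9 TPM in Batch2 and 27.9 TPM in Batch1.

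Defining markers of cells that a culture could be mixed with were near 0, though not every member of those lists was. The leukocyte antigen PTPRC had 1 count in each batch, the endothelial adhesion molecule PECAM1 had 5 and 2, haemoglobin HBB had 2 and 0, and the fibroblast genes COL1A2, DCN and POSTN had 4, 2 and 1 counts in Batch2 and 6, 1 and 1 in Batch1. Of the leukocyte list, CD68, a lysosomal protein, averaged 12.1 TPM in Batch2 and 11.6 TPM in Batch1 and CD14 4.78 and 2.84 TPM, and the summed list stood at 13.4 to 15.2 CPM in Batch2 and 11.8 to 16.3 CPM in Batch1. Of the fibroblast list, COL1A1 averaged 12.8 TPM in Batch2 and 16.9 TPM in Batch1, THY1 3.59 and 5.23 TPM and COL3A1 4.14 and 1.92 TPM. None of the 6 endothelial or 5 erythroid genes passed the filter on low counts. Among the genes the line is known to have lost, CDKN2A and its neighbour CDKN2B had no count in any library. KEAP1 stood at 50.5 TPM in Batch2 and 31.9 TPM in Batch1, and NFE2L2, which encodes NRF2, at 48.8 and 46 TPM.

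**Figure D1:**
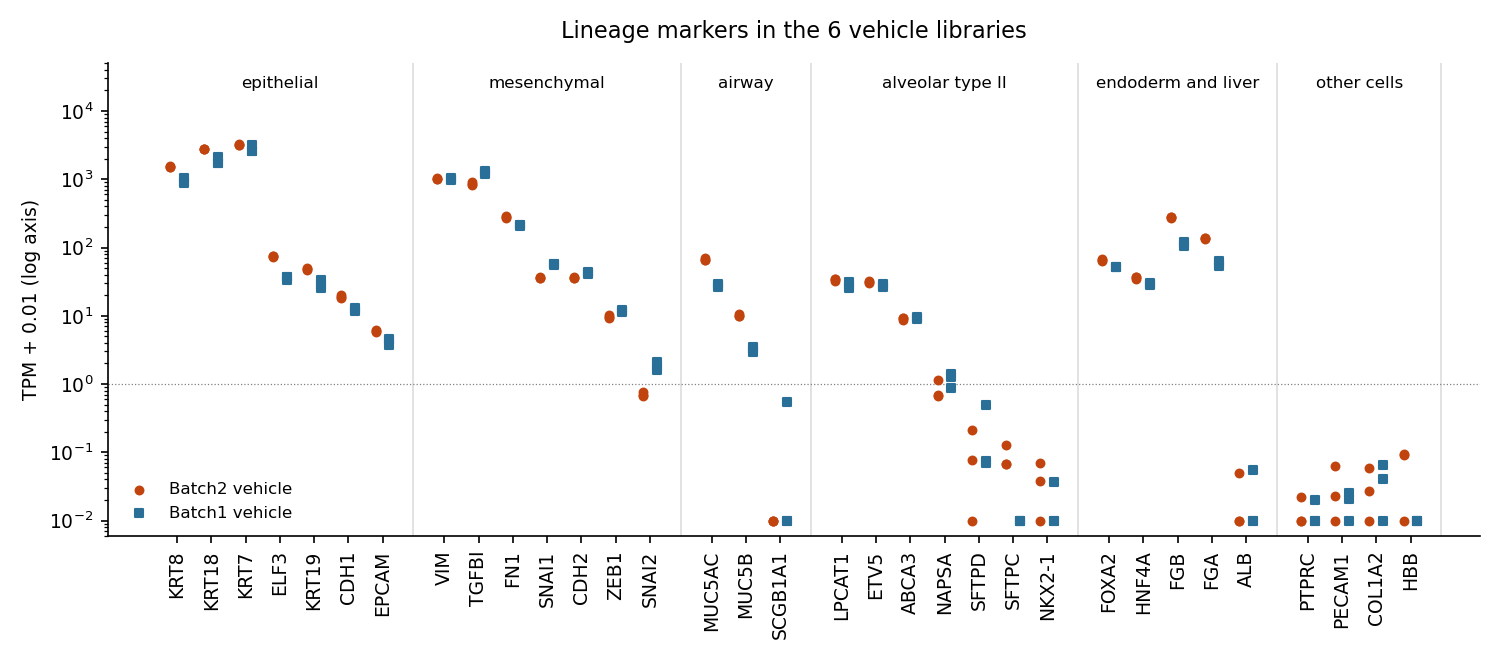
Level per length of lineage marker genes in the vehicle libraries, in TPM on a log axis with 0.01 added, Batch2 libraries left of Batch1 libraries for each gene; each point is 1 library. Surfactant genes and NKX2-1 lie at the bottom of the axis, whereas keratins and VIM lie at the top, between 937 and 3198 TPM on average for KRT7, KRT18, KRT8 and VIM.

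The batches were then compared gene by gene, as Batch2 vehicle minus Batch1 vehicle. Of 15805 genes tested, 5848 (37%) passed an adjusted p of 0.05 in edgeR's quasi-likelihood test with Benjamini-Hochberg adjustment. Of these, 2952 (18.7% of genes tested) were higher in Batch2 and 2896 (18.3%) were lower. Most differences were small: the median size of a called difference was 0.32 on the log2 scale, and 4603 calls were under 1.5-fold. At least 2-fold differences were called for 407 genes (2.58%), 225 higher and 182 lower, and 214 of the 407 were protein-coding. In 7805 genes (49.4%) the libraries of the batches did not overlap. The common biological coefficient of variation of the 6 libraries was 0.0454, with 4 residual degrees of freedom. Estimated in each batch alone, it was 0.0251 in Batch2 and 0.0594 in Batch1. In a fit that took its spread from all 96 libraries, 1154 genes were called.

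**Figure D2:**
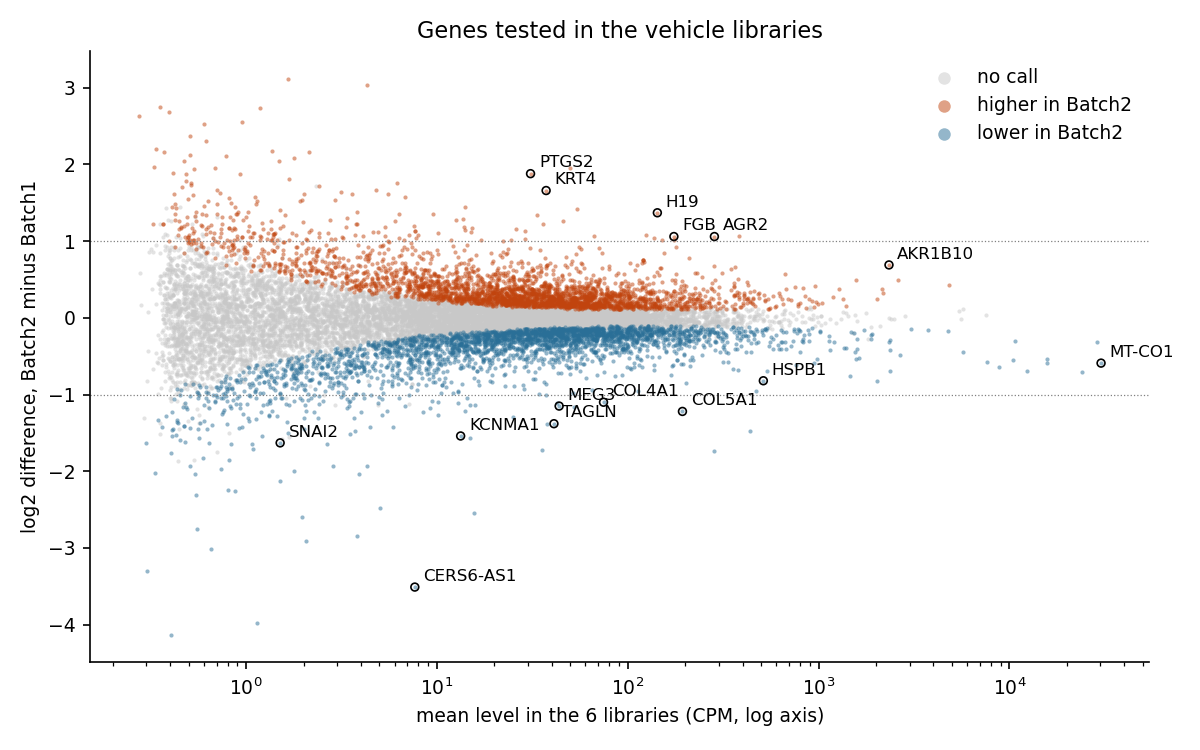
Log2 difference between the batches (Batch2 vehicle minus Batch1 vehicle) against mean level in CPM on a log axis; each point is 1 gene tested, coloured by its call. Calls of both signs lie mostly close to 0 (median size 0.32); 8 genes beyond 4.2 on the log2 scale are not drawn.

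The genes given first are among those with the smallest p that were at least 2-fold apart. The basement membrane collagen COL4A1 had 48.6, 47.9 and 45.2 CPM in Batch2 and 99.3, 102 and 104 CPM in Batch1 (log2 -1.10 ± 0.04, SE, edgeR adjusted p = 1.68e-08). The groups lay far apart relative to their spread. The smooth muscle and actin-bundling gene TAGLN had 23.2, 23.7 and 21.4 CPM in Batch2 and 57.2, 58.1 and 62.6 CPM in Batch1 (log2 -1.38 ± 0.06). The fibrillar collagen COL5A1 (log2 -1.22 ± 0.06), the maternally expressed imprinted RNA MEG3 (log2 -1.15 ± 0.05) and the large-conductance potassium channel KCNMA1 (log2 -1.54 ± 0.08) were lower as well. In each of these genes every Batch2 library lay under every Batch1 library.

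On the other side, KRT4, a keratin of stratified mucosa, had 56, 54.9 and 59.2 CPM in Batch2 libraries and 17.1, 18.7 and 18.2 CPM in Batch1 libraries. It was higher in Batch2 by a log2 difference of 1.66 ± 0.05 (edgeR adjusted p = 7.21e-09). The imprinted RNA H19 had 202, 213 and 203 CPM in Batch2 and 75.6, 80.3 and 83.8 CPM in Batch1 (log2 1.37 ± 0.05, edgeR adjusted p = 9.4e-09). H19 and MEG3, both expressed from the maternal allele, thus moved in opposite directions. AGR2, a disulfide isomerase of mucus-secreting cells, had 385, 383 and 386 CPM in Batch2 and 190, 180 and 182 CPM in Batch1 (log2 1.06 ± 0.04). FGB, the fibrinogen beta chain, differed by 1.06 ± 0.04.

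PTGS2, which encodes the inducible cyclooxygenase COX-2, was another of the 6 rises with the smallest p. Its levels were 51, 46.8 and 48.3 CPM in Batch2 libraries and 14.9, 12.6 and 11.9 CPM in Batch1 libraries, with a wide gap between the batches. The log2 difference was 1.88 ± 0.07 (edgeR adjusted p = 1.66e-08). Its promoter (RefSeq, GRCh38.p14, chr1:186680374-186680673, minus strand, 250 bases before to 50 after the gene start) is shown because PTGS2 is a textbook stimulus-responsive gene with a TATA box and a cyclic AMP response element. Capitals mark matches to TATAAA and to CGTCA.
PTGS2: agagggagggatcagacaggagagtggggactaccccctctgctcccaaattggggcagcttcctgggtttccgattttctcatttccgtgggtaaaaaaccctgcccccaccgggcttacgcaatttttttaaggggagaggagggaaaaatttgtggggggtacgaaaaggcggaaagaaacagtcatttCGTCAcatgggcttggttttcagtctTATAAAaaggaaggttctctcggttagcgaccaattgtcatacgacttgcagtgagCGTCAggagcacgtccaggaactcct
Searched on both strands, TATAAA was found at position -32 and CGTCA at positions -58 and 24 relative to the gene start. TATAAA occurs in 12% and CGTCA in 25% of 27305 promoters of the same length, so neither match is rare. A match is a stretch of letters and not a measurement of binding.

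Ranked by size, the largest differences were in genes whose counts are uncertain. INO80B-WBP1, a readthrough of neighbouring genes, had 302 counts in Batch2 and 0 in Batch1, at least 89.3-fold higher in Batch2 against a floor of 3 counts over the group. The readthroughs HSPE1-MOB4 (log2 3.12 ± 0.46) and TVP23C-CDRT4 (log2 3.04 ± 0.17) were higher and ST20-MTHFS (log2 -2.48 ± 0.23) was lower. EIF3CL, a near copy of a translation initiation factor gene, was at 33.4, 6.05 and 1.64 CPM in Batch2 and at 0, 0.734 and 0 CPM in Batch1, so that 1 library carried most of its difference. DESeq2's Wald test did not call EIF3CL (adjusted p = 0.053) or the RNA CERS6-AS1 (adjusted p = 0.0689). KRT87P and KRT8P33 are keratin pseudogenes, and CERS6-AS1 (log2 -3.51 ± 0.43) and SPACA6P-AS (log2 -2.59 ± 0.21) are named as antisense RNAs. RSEM divides reads that match several genes among them, and whether strand entered the counting is not given, so all of these values are uncertain.

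Among the other genes ranked by size, most were expressed at low levels. The inward rectifier KCNJ2 averaged 1.03 ± 0.316 CPM in Batch2 and 0.2 ± 0.0901 CPM in Batch1 (log2 2.31 ± 0.39). SGPP2, a sphingosine-1-phosphate phosphatase, differed by 2.18 ± 0.31, HGF, the hepatocyte growth factor and ligand of MET, by 2.11 ± 0.36, the potassium channel KCNT2 by 1.95 ± 0.41 and the cornified envelope gene SCEL by 1.88 ± 0.32, all higher in Batch2. Lower in Batch2 were IGFN1 (log2 -2.26 ± 0.32), TMEM265 (log2 -2.13 ± 0.31), the chorionic gonadotropin gene CGB8 (log2 -1.71 ± 0.30, with near-identical paralogs), the leukotriene synthesis gene ALOX5AP (log2 -1.64 ± 0.30) and the collagen COL22A1 (log2 -1.64 ± 0.26). FBXO48 and LDLRAD2 differed by -1.64 ± 0.22 and -1.54 ± 0.28. The repressor SNAI2, known for silencing CDH1, had 0.796, 0.728 and 0.688 CPM in Batch2 and 2.62, 2.11 and 2.11 CPM in Batch1 (log2 -1.63 ± 0.21, edgeR adjusted p = 0.000116).

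**Figure D3:**
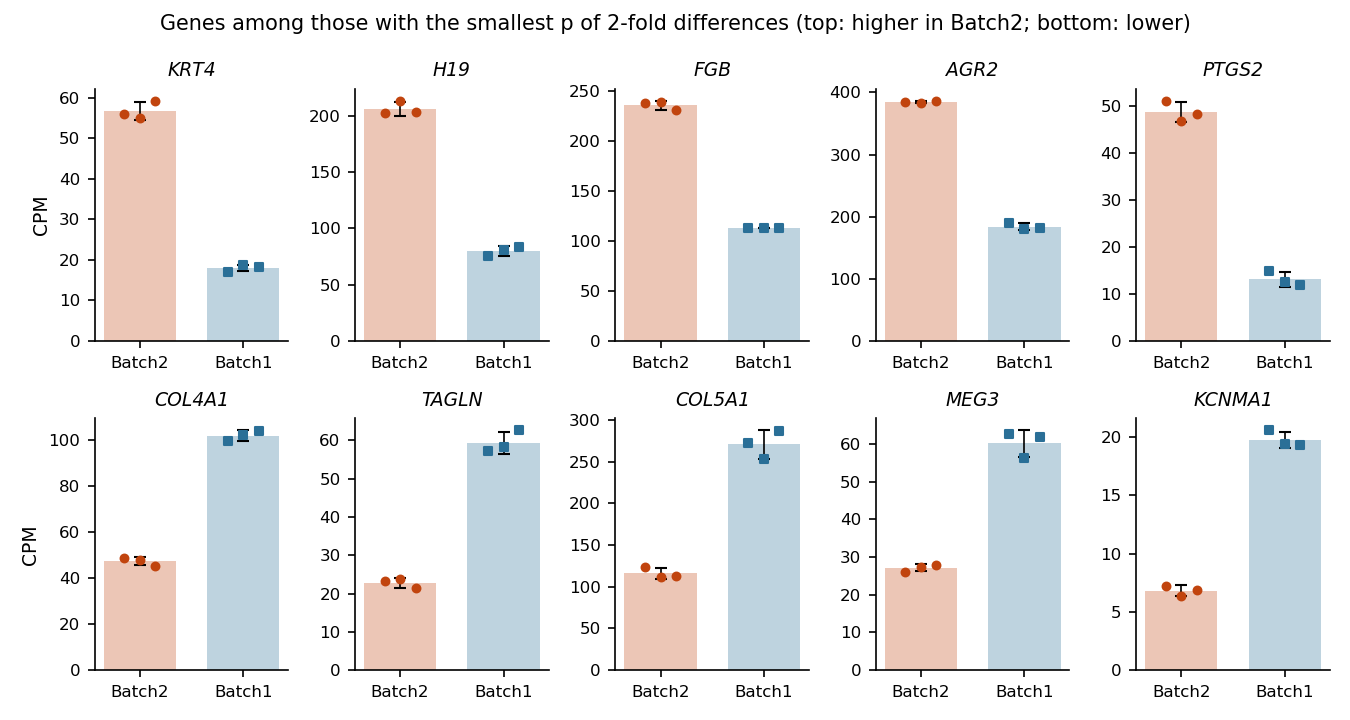
Levels in CPM of genes among those with the smallest p for a difference between the batches, Batch2 bars left of Batch1 bars; bars show the mean, error bars the SD of 3 libraries and points the libraries. COL4A1 averaged 47.3 CPM in Batch2 and 102 CPM in Batch1, and H19 206 CPM in Batch2 and 79.9 CPM in Batch1.

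Counts of called members in the lists below are to be read beside all genes tested, of which 18.7% were higher and 18.3% lower. The fit of all 96 libraries called 1154 genes, and its share of genes tested is not reported here. Genes of epithelial identity were mostly higher in Batch2. Of 10 tested, 7 were higher and 1 was lower, with a median log2 difference of 0.39, beside a median of 0.001 over all genes tested. ELF3, an epithelial transcription factor, had 202, 203 and 193 CPM in Batch2 and 116, 108 and 110 CPM in Batch1 (log2 0.84 ± 0.04, edgeR adjusted p = 9.71e-08). CDH1, E-cadherin, had 40.9, 43.5 and 39.9 CPM in Batch2 and 30.1, 30.2 and 32.8 CPM in Batch1 (log2 0.42 ± 0.05). In both genes the groups did not overlap. KRT8, KRT18 and KRT19 were higher by 0.50, 0.37 and 0.53, KRT7 differed by -0.02 ± 0.05 without a call, and the tight junction gene CLDN1 was lower by a log2 difference of -0.40 ± 0.06. EPCAM, at 5.3 CPM in Batch2 and 4.27 CPM in Batch1, passed with an adjusted p of 0.0492 and lost its call in 5 of the 6 fits that left out 1 library.

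Mesenchymal genes moved the other way. Of 12 tested, 9 were lower in Batch2 and 2 were higher, with a median log2 difference of -0.48. SNAI1, like SNAI2 a repressor of E-cadherin, had 26.2, 27.3 and 26.3 CPM in Batch2 and 47.8, 45.1 and 51.8 CPM in Batch1 (log2 -0.86 ± 0.06, edgeR adjusted p = 8.11e-07). The gap between the groups was wider than either group's range. The matrix proteins TGFBI and SPARC (log2 -0.76 ± 0.05 and -0.73 ± 0.06), the gelatinase MMP2 (log2 -1.11 ± 0.08), N-cadherin CDH2 (log2 -0.46 ± 0.04), ZEB1 (log2 -0.49 ± 0.05) and VIM (log2 -0.21 ± 0.04) were lower. S100A4 (log2 0.73 ± 0.08) and fibronectin FN1 (log2 0.19 ± 0.05) were the members that were higher.

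Targets of TGF-beta, the cytokine that signals through SMAD factors to matrix and repressor genes, overlap with that list in SNAI1, SNAI2 and TGFBI. Of 19 tested, 12 were lower in Batch2 and 3 were higher, with a median log2 difference of -0.43. The ligands TGFB1 and TGFB2 were lower, with log2 differences of -0.43 and -0.65, and the latent binding protein LTBP2 had -0.66 ± 0.07. PMEPA1, a feedback inhibitor, had 292, 273 and 259 CPM in Batch2 and 442, 427 and 444 CPM in Batch1 (log2 -0.67 ± 0.05), again without overlap. The inhibitory SMAD7, at 21.3 CPM in Batch2 and 23.3 CPM in Batch1, was not called. ID1, SKIL and BAMBI were higher, by 0.42, 0.34 and 0.37. Targets of YAP, the coactivator of the Hippo pathway, gave 4 higher and 9 lower of 18 (median log2 -0.14), with 2 to 6 higher and 7 to 10 lower when 1 library was left out. Among them CCN1 and AXL were lower (log2 -0.70 ± 0.08 and -0.51 ± 0.04), whereas the WNT inhibitor DKK1 had 172, 169 and 169 CPM in Batch2 and 84.3, 74.7 and 81.7 CPM in Batch1 (log2 1.08 ± 0.05).

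Fibroblast genes were measured beside these lists. Summed, the 8 fibroblast markers stood at 52 to 59.3 CPM in Batch2 libraries and 73.2 to 79.8 CPM in Batch1 libraries, nearly all of it from COL1A1, THY1 and COL3A1. COL1A1 and THY1 were lower in Batch2 (log2 -0.62 ± 0.06 and -0.77 ± 0.08) and COL3A1 was higher (log2 0.89 ± 0.09), while COL1A2, DCN and POSTN stayed at the counts of 1 to 6 given above. With all 96 libraries in the fit, 5 mesenchymal genes and 7 TGF-beta targets were lower and none was higher, and among epithelial genes 1 was higher and none lower.

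Hepatocyte secretory genes and gastric and intestinal genes were also called higher more often than lower in Batch2. Of 10 hepatocyte genes tested, 6 were higher in Batch2 and 1 was lower (median log2 0.52). The 3 fibrinogen chains, which are encoded side by side on chromosome 4, moved together. FGA had 236, 238 and 226 CPM in Batch2 and 116, 119 and 113 CPM in Batch1 (log2 1.01 ± 0.04). FGG differed by 1.04 ± 0.04, close to FGB above. The complement component C3 was lower by a log2 difference of -0.28 ± 0.05. Of 6 gastric and intestinal genes tested, 4 were higher and none lower (median log2 0.58), among them the microvillar protein VIL1 (log2 1.03 ± 0.24) and the intestinal mucin MUC2 (log2 1.11 ± 0.24). With all 96 libraries in the fit, 3 of 11 hepatocyte genes and 1 of 8 gastric and intestinal genes were higher and none was lower.

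The airway mucins were the only secretory airway genes that passed the filter. MUC5AC, the main gel-forming mucin of goblet cells, had 537, 509 and 505 CPM in Batch2 and 237, 240 and 264 CPM in Batch1 (log2 1.07 ± 0.05, edgeR adjusted p = 4.94e-08). MUC5B had 82.5, 77.9 and 77.6 CPM in Batch2 and 32.3, 24.5 and 31.8 CPM in Batch1 (log2 1.42 ± 0.08, edgeR adjusted p = 2.2e-07). For both, the lowest Batch2 library was well above the highest Batch1 library. Of the 11 endoderm factors tested, 2 were higher and 1 was lower, and FOXA1 was higher by 0.53 ± 0.05. HNF4A, at 113 CPM in Batch2 and 107 CPM in Batch1, was not called. Of 6 type II genes tested, ABCA3 alone was called (log2 -0.27 ± 0.07).

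**Figure D4:**
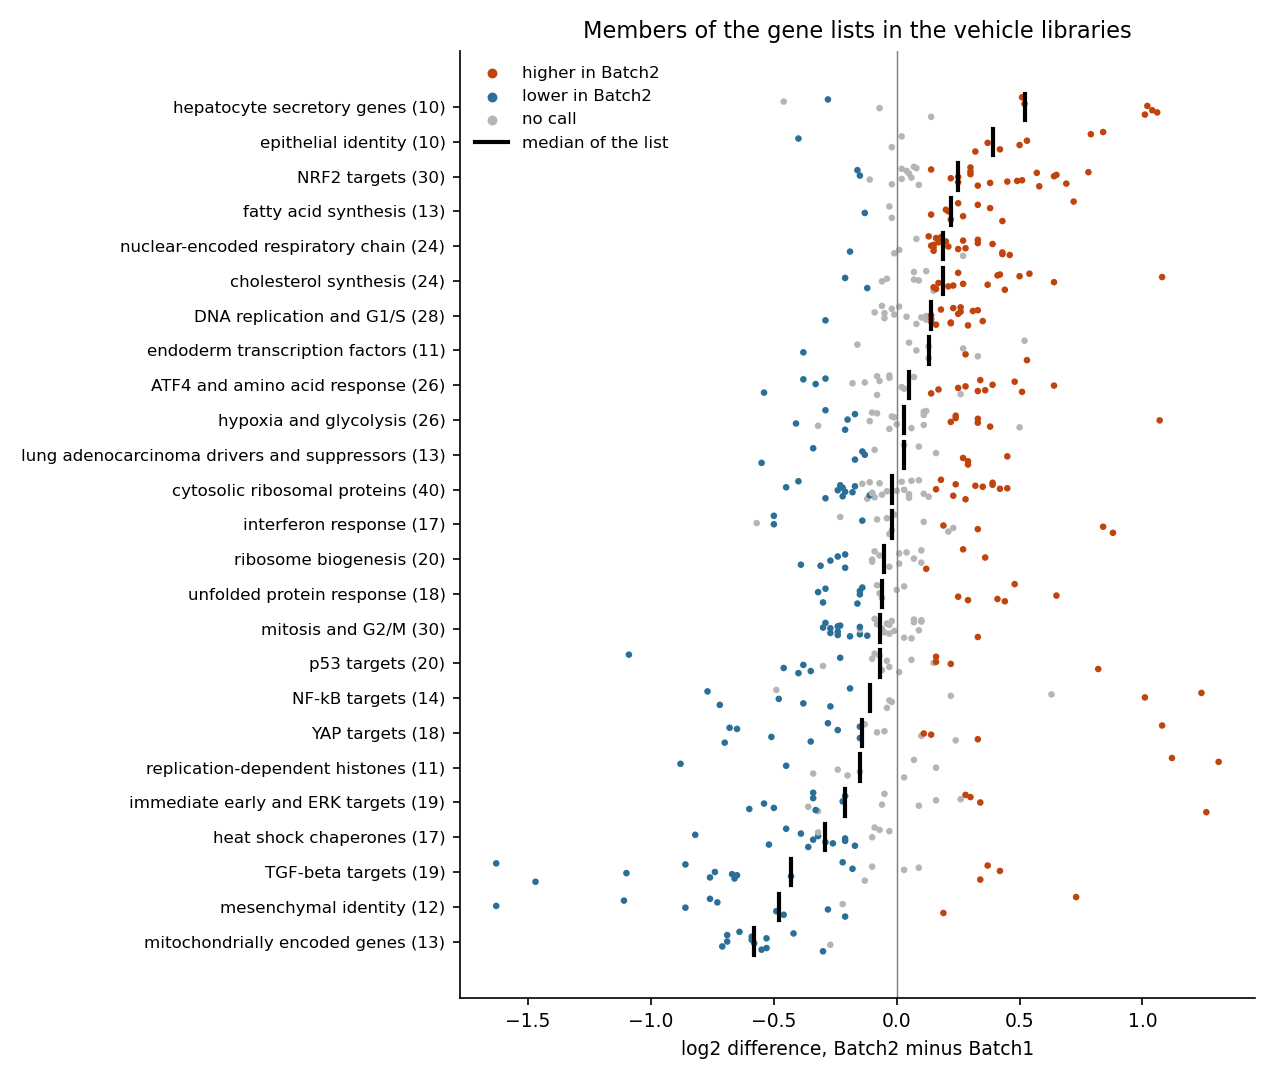
Log2 difference (Batch2 vehicle minus Batch1 vehicle) of every tested member of the 25 gene lists with at least 10 tested members; each point is 1 gene, black bars mark the median of the list and numbers in brackets give the members tested. Hepatocyte and epithelial genes lie mostly right of 0 (medians 0.52 and 0.39), TGF-beta targets, mesenchymal genes and mitochondrially encoded genes mostly left of it (medians -0.43, -0.48 and -0.58).

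Targets of NRF2, the transcription factor of the antioxidant response that A549 cells are known to hold active, were highly expressed in both batches. Summed, the 30 genes stood at 31621 to 31954 CPM in Batch2 and 27678 to 29190 CPM in Batch1. Of the 30, 18 were higher in Batch2 and 2 were lower (median log2 0.25), against 13 and 0 with all 96 libraries in the fit. AKR1B10 had 2843, 2920 and 2891 CPM in Batch2 and 1787, 1848 and 1742 CPM in Batch1 (log2 0.69 ± 0.04, edgeR adjusted p = 4e-07). SLC7A11, the cystine importer, had 421, 415 and 435 CPM in Batch2 and 278, 276 and 259 CPM in Batch1 (log2 0.64 ± 0.04). In both the batches were far apart. The glutathione peroxidase GPX2 (log2 0.78 ± 0.08), OSGIN1 (log2 0.65 ± 0.05), AKR1C1 (log2 0.58 ± 0.05), ALDH3A1 (log2 0.57 ± 0.04) and the sulfiredoxin SRXN1 (log2 0.51 ± 0.04) were higher too. HMOX1, heme oxygenase, and FTH1 were the members that were lower (log2 -0.15 ± 0.04 and -0.16 ± 0.06), calls that were lost in 4 and 5 of the 6 fits that left out 1 library. The pentose phosphate enzymes PGD and TKT were not called. KEAP1 itself had 69.5, 69.6 and 69.5 CPM in Batch2 and 48.6, 55.8 and 48.2 CPM in Batch1 (log2 0.45 ± 0.06), and NFE2L2 was lower by a log2 difference of -0.13 ± 0.05, a call lost in 4 of those 6 fits.

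TXNRD1, thioredoxin reductase, had 1802, 1830 and 1843 CPM in Batch2 libraries and 1307, 1333 and 1271 CPM in Batch1 libraries (log2 0.49 ± 0.04, edgeR adjusted p = 4.33e-06). TXNRD1 is a known NRF2 target, and the stretch at its RefSeq gene start (GRCh38.p14, chr12:104215529-104215828, plus strand) is shown. Capitals mark matches to TGACNNNGC, the core of the antioxidant response element, on either strand. Whether these cells start transcription of TXNRD1 there was not measured. Any role of the matches in its level was not tested.
TXNRD1: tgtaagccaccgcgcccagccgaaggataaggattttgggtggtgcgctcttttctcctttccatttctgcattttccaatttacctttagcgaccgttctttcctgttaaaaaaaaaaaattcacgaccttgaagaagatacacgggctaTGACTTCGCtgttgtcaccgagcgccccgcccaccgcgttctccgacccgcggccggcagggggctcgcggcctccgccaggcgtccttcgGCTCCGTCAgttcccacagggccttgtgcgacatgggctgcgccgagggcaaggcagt
The matches start at positions -99 and -8, and the second, on the opposite strand, overlaps a CGTCA. TGACNNNGC occurs in 13.6% of the 27305 promoters.

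Heat shock chaperones, which fold proteins under the control of the factor HSF1, were lower in Batch2. Of 17 tested, 12 were lower and 0 were higher, with a median log2 difference of -0.29, against 6 and 0 with all 96 libraries in the fit. HSPB1, the small heat shock protein HSP27, had 384, 375 and 357 CPM in Batch2 and 612, 677 and 676 CPM in Batch1 (log2 -0.82 ± 0.05, edgeR adjusted p = 4.14e-07). HSPA8, the constitutive HSC70, had 1341, 1319 and 1341 CPM in Batch2 and 1882, 1930 and 1910 CPM in Batch1 (log2 -0.52 ± 0.04, edgeR adjusted p = 2.04e-06). The batches did not overlap in either gene. DNAJB1, BAG3 and CHORDC1 were lower, with log2 differences of -0.34, -0.39 and -0.45. HSPA1A was lower as well (log2 -0.36 ± 0.04), but it shares nearly all its sequence with HSPA1B and the split of reads between them is uncertain. The promoter of HSPA8 (RefSeq, GRCh38.p14, chr11:123062087-123062386, minus strand) is shown with matches to a heat shock element in capitals, searched on both strands as GAA, NN, TTC, NN and GAA in a row.
HSPA8: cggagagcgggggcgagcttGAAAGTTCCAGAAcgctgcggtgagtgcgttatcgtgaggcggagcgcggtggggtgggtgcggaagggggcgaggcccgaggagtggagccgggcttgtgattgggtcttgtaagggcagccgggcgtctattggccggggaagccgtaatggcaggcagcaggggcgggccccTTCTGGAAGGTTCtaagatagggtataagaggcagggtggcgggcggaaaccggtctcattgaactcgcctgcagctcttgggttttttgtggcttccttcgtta
Matches lie at positions -230 and -55, the second on the opposite strand, and 0.487% of the 27305 promoters hold this motif. Among endoplasmic reticulum genes of the unfolded protein response, 6 were higher and 7 lower of 18 (median log2 -0.06), and 4 to 7 lower with 1 library left out.

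All 13 protein-coding genes of the mitochondrial genome were tested, and 12 were lower in Batch2 and 0 higher (median log2 -0.58). MT-CO1 had 23521, 24401 and 24390 CPM in Batch2 and 37636, 30205 and 41139 CPM in Batch1 (log2 -0.59 ± 0.09, edgeR adjusted p = 0.000287), and MT-ND4 had 17144, 18553 and 18958 CPM in Batch2 and 30961, 24642 and 33935 CPM in Batch1 (log2 -0.71 ± 0.09). In both genes the second Batch1 library lay lowest of the 3 without reaching the Batch2 range. MT-ND4L was the member without a call (log2 -0.27 ± 0.14, adjusted p = 0.149), and in it the second Batch1 library, at 1391 CPM, lay under the 1516, 1670 and 1720 CPM of Batch2. Nuclear genes of the respiratory chain did not follow: of 24, 19 were higher in Batch2 and 1 was lower (median log2 0.19), with NDUFA4 at 0.46 ± 0.05 and NDUFA9 and NDUFB7 at 0.43 each. The 19 became 12 without the first Batch1 library, 12 without the first Batch2 library and 13 without the second Batch2 library. When the mitochondrially encoded genes were left out of the fit, 5845 genes were called in place of 5848. With the spread taken from all 96 libraries, none of the 13 mitochondrially encoded genes and 1 of the 24 nuclear ones was called.

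Of 28 genes of DNA replication and the G1/S transition, 15 were higher in Batch2 and 1 was lower (median log2 0.14). The 15 became 10 to 15 with 1 library left out, and with all 96 libraries in the fit 2 were higher and 1 was lower. PCNA, the sliding clamp of DNA polymerase, had 221, 223 and 222 CPM in Batch2 and 172, 193 and 158 CPM in Batch1 (log2 0.35 ± 0.06). MCM2 of the replicative helicase and the regulator E2F1 were higher by 0.29 and 0.31. Genes of mitosis gave 1 higher and 12 lower of 30, with a median of -0.07 that is close to 0. The share called in either direction, 43.3%, is near the 37% of all genes tested, although the calls lay mostly on the lower side. With 1 library left out, 1 to 4 mitosis genes were higher and 9 to 12 lower. With all 96 libraries in the fit, 0 were higher and 1 was lower. TPX2, TOP2A and UBE2C were lower, with log2 differences of -0.30, -0.27 and -0.29, whereas CDK1 was the member that was higher (log2 0.33 ± 0.06) and the proliferation marker MKI67, at 620 CPM in Batch2 and 658 CPM in Batch1, was not called. The kinase AURKB, named in the title of the series through its pathway, averaged 76.5 CPM in Batch2 and 90.5 CPM in Batch1 (log2 -0.24 ± 0.04, edgeR adjusted p = 0.000678).

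Lipid synthesis genes were more often called higher than lower in Batch2. With all 96 libraries in the fit, the calls were 6 higher and 0 lower of 24 for cholesterol and 1 higher and 0 lower of 13 for fatty acids. In the vehicle fit, for cholesterol, 15 of 24 were higher and 2 were lower (median log2 0.19), among them HMGCS1, the HMG-CoA synthase (121 ± 2.63 CPM in Batch2 and 89.4 ± 2.22 CPM in Batch1, log2 0.44 ± 0.04, edgeR adjusted p = 1.12e-05). For fatty acids, 10 of 13 were higher and 1 was lower (median log2 0.22), with FASN at 490 ± 8.92 CPM in Batch2 and 365 ± 12.9 CPM in Batch1 (log2 0.43 ± 0.04). SREBF1, the regulator of that branch, was higher by 0.38 ± 0.04.

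Signalling and stress lists were split. Beside 37% of all genes tested, 41.2% of interferon-responsive genes, 45% of ribosome biogenesis genes and 46.2% of hypoxia and glycolysis genes were called. These shares lie near that of all genes, so the counts say little about those lists. Of p53 targets 50% were called and of immediate early genes 63.2%. Immediate early genes gave 4 higher and 8 lower of 19 (median log2 -0.21): FOS was higher (log2 1.26 ± 0.13) while its partner JUN was lower (log2 -0.60 ± 0.05) and so was the phosphatase DUSP1 (log2 -0.54 ± 0.04). NF-kB targets gave 2 higher and 6 lower of 14 (median log2 -0.11), with NFKB2 at -0.72 ± 0.05. Targets of p53 gave 4 higher and 6 lower of 20 (median log2 -0.07), CDKN1A, the p21 inhibitor, being lower (log2 -0.40 ± 0.05). Genes of hypoxia and glycolysis gave 7 higher and 5 lower of 26, those of the amino acid response 11 and 4 of 26, interferon-responsive genes 4 and 3 of 17, ribosome biogenesis 3 and 6 of 20 and ribosomal proteins 11 and 11 of 40, all with medians between -0.05 and 0.05. Among these lists, single libraries moved some counts: with 1 library left out, 9 to 17 ribosomal protein genes were higher and 6 to 14 lower, and 5 to 11 hypoxia and glycolysis genes were higher. With all 96 libraries in the fit, immediate early genes gave 1 higher and 3 lower of 20, p53 targets 1 and 2 of 20 and NF-kB targets 2 and 2 of 14. The short lists gave 2 higher and 0 lower of 5 metallothioneins, 2 and 1 of 5 aryl hydrocarbon receptor targets, 2 and 2 of 11 replication-dependent histones and 2 and 1 of 6 short noncoding and nuclear RNAs. Of the lung cancer genes, EGFR was lower in Batch2 (172 ± 1.72 CPM, against 251 ± 8.18 CPM in Batch1, log2 -0.55 ± 0.04).

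A second pair of samples from the same batches came from cells at the lowest dose of each substance: 24 libraries of the 8 ingredients at 0.4 µM in Batch2 and 6 libraries of the 2 extracts at 20 µg/mL in Batch1. They share no library with the vehicle comparison, but each batch received other substances, so batch and treatment cannot be told apart among them, and 5 of the 24 Batch2 libraries stand apart as defined above. Of 17237 genes tested, 6186 (35.9%) were called, 3185 (18.5%) higher in Batch2 and 3001 (17.4%) lower. Leaving out replicate 1 of every group left 1996 calls, and leaving out replicate 3 left 3360. Of the 5847 genes called between the vehicles and tested here, 4522 (77.3%) had a difference of the same sign, against 60.7% of the genes not called between the vehicles. Both comparisons called 2533 genes in the same direction, which is 43.3% of the vehicle calls and 42.9% of the 5910 lowest-dose calls, and 261 in opposite directions. Of the 406 genes at least 2-fold apart between the vehicles, 345 (85%) had the same sign and 229 were called the same way. Without the libraries that stand apart, 3217 genes were called the same way and 449 in opposite directions.

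Each of the 10 genes that lead the vehicle comparison was called there with the same sign, with sizes that were close in some and not in others. The log2 difference of KCNMA1 was -1.54 between the vehicles and -1.49 ± 0.06 at the lowest doses, that of KRT4 1.66 and 1.59 ± 0.05 and that of AGR2 1.06 and 1.06 ± 0.08. COL4A1 gave -1.10 and -1.16 ± 0.09 and COL5A1 -1.22 and -1.17 ± 0.09. TAGLN gave -1.38 and -0.91 ± 0.09, and FGB 1.06 and 1.47 ± 0.06, a pair that differed (edgeR adjusted p of the difference = 0.038). PTGS2 gave 1.88 and 1.48 ± 0.11, H19 1.37 and 1.79 ± 0.12, and MEG3 -1.15 and -1.09 ± 0.05. Of the readthrough and antisense genes, INO80B-WBP1, TVP23C-CDRT4 and ST20-MTHFS were not called at the lowest doses, and HSPE1-MOB4 and CERS6-AS1 were called with the opposite sign (log2 -1.77 ± 0.48 and 1.0 ± 0.27). SPACA6P-AS was called lower in both, at -2.59 and -1.21 ± 0.17. The airway mucins were not called there (MUC5AC 0.36, adjusted p = 0.124, MUC5B 0.70, adjusted p = 0.0511), although both were called once the libraries that stand apart were left out.

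**Figure D5:**
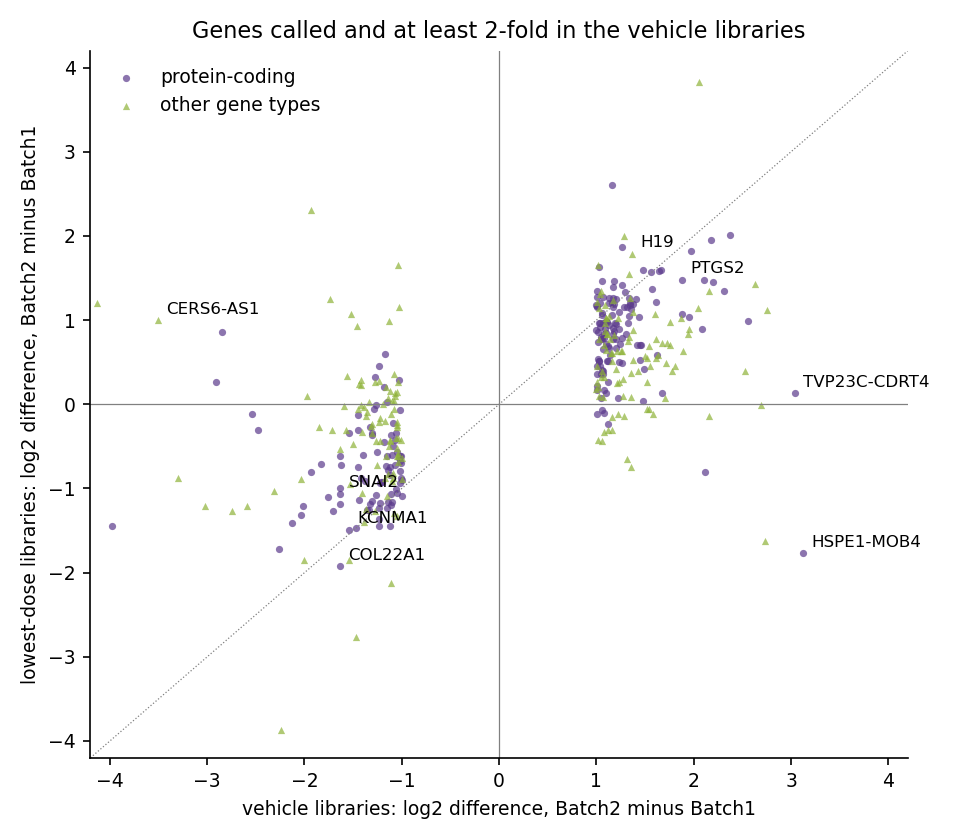
Log2 difference between the batches in the vehicle libraries (horizontal) and in the lowest-dose libraries (vertical), Batch2 minus Batch1 on both axes, for 397 genes called and at least 2-fold apart between the vehicles; 9 further genes lie beyond 4.2 on the log2 scale. Genes such as KCNMA1 (-1.54 in the vehicle and -1.49 in the lowest-dose libraries) lie near the dotted line of equal differences, while HSPE1-MOB4 and CERS6-AS1 lie on opposite sides of 0.

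By list, the lowest-dose comparison gave 6 higher and 1 lower among 10 epithelial genes (median log2 0.72), 0 and 7 among 12 mesenchymal genes (-0.48), 2 and 10 among 19 TGF-beta targets (-0.32), 20 and 0 among 30 NRF2 targets (0.25) and 0 and 9 among 17 heat shock chaperones (-0.24). Replication genes gave 19 higher and 0 lower of 28, hepatocyte genes 6 and 1 of 10, and cholesterol genes 13 and 2 of 24. Mitochondrially encoded genes gave 0 higher and 1 lower of 13 (median log2 -0.64), and 0 and 10 without the libraries that stand apart (-0.35). Of 13 fatty acid genes, 3 were higher and 1 was lower. Other lists had counts unlike those between the vehicles. Ribosome biogenesis gave 14 higher and 2 lower of 20 (median log2 0.29, against -0.05 between the vehicles), ribosomal proteins 6 and 1 of 40 (0.19, against -0.02), immediate early genes 2 and 6 of 19 (0.07, against -0.21) and YAP targets 1 and 14 of 18 (-0.41, against -0.14). Targets of p53 gave 1 higher and 10 lower of 20, NF-kB targets 1 and 6 of 14, mitosis genes 1 and 7 of 30 and nuclear respiratory chain genes 15 and 0 of 24. Differences between these list counts were not tested.

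Spread within a batch was small. Over genes at a mean of at least 20 CPM, the median coefficient of variation was 2.79% in Batch2 (7163 genes) and 4.62% in Batch1 (7147 genes). In Batch2, 2 genes varied by more than 20%, SLX1B and the pseudogene KRT87P, and in Batch1 22 did, among them NPIPB4, MTND2P28, U2AF1L5, TOMM7 and MT-ND4L. SLX1B, NPIPB4 and U2AF1L5 have near-identical copies and MTND2P28 copies mitochondrial sequence, so their counts are uncertain. Across 15700 genes, which are not independent replicates, the difference between the batches had a Spearman coefficient of 0.00 with GC content and of -0.01 with exon length. Such a coefficient misses patterns that do not run in 1 direction. From the lowest to the highest GC quartile, 797, 627, 694 and 827 genes were higher in Batch2 and 647, 824, 722 and 681 lower. Median log2 differences of these quartiles lay between -0.03 and 0.02. Of protein-coding genes, 39.5% were called, of antisense genes 19.6%, of lincRNAs 24.6% and of processed pseudogenes 29.3%, the last with 78 higher and 30 lower in Batch2.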

How the data were processed

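The authors deposited 1 table of expected counts per gene for 60675 genes in 96 libraries. The tools RSEM 1.3.3, STAR, Trim Galore and FastQC and the build GRCh38 (hg38) are given per the submitters' processing notes. No source used here gives their settings, roles or the annotation release. Per the labels, total RNA was made into libraries with a directional kit. Of the deposited values, 89.2% were whole; all were rounded. Groups were taken from the labels.

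Vehicle libraries were compared with edgeR 4.0.16 in R 4.3.3 (TMM, filterByExpr, glmQLFit, glmQLFTest, Benjamini-Hochberg over all genes tested, threshold 0.05), as Batch2 minus Batch1. The lowest-dose contrast was the mean of the ingredient groups minus the mean of the extract groups. DESeq2 1.42.0 served as an alternative. TPM was computed from exon lengths and gene types of GENCODE release 29, which may not be the authors' release (56996 genes matched). The test was checked on simulated counts. Alternatives were other size factors, other filters on low counts, the fit of all 96 libraries, a replicate block and each library left out. CPM values carry counting error beside the spread shown. For every adjusted p in the text the tool is edgeR unless DESeq2 is named.

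Named genes were the 20 highest per length, the 12 largest rises and 12 largest falls (called, a mean of at least 1 CPM in 1 batch, no overlap between batches), the 6 rises and 6 falls of at least 2-fold with the smallest p, and members that carry each list, with up to 4 of smallest p in state lists. Further members of the lists are given for context. Some genes under this rule are not reported here. Clone names, symbols carried by several identifiers and XIST and Y-linked genes were passed over. The members and the 39 gene lists were chosen with earlier results of these data known. Promoter sequences of 3 genes are from RefSeq.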

Additional observations from a re-analysis of the deposited data

Results flagged for a closer look

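For 7 named genes the difference between the batches was itself different in the vehicle and in the lowest-dose libraries, by a contrast of the 2 differences in 1 edgeR fit of the 36 libraries (adjusted over 17377 genes, of which 131 passed). That contrast was chosen after the data had been seen. Each value below is the vehicle difference minus the lowest-dose difference, on the log2 scale. The readthrough gene HSPE1-MOB4 gave 4.87 (3.12 between the vehicles, -1.77 at the lowest doses, edgeR adjusted p = 0.0261). CERS6-AS1 gave -4.51 (-3.51 and 1.0, edgeR adjusted p = 0.00189) and the antisense gene RP11-386G11.10 gave -3.00 (-1.74 and 1.25, edgeR adjusted p = 0.018). These 3 changed sign, and the counts of all 3 are uncertain.

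The other 4 were not called with opposite signs. The fibrinogen chain FGB gave -0.41 (1.06 and 1.47, edgeR adjusted p = 0.038), being higher in Batch2 in both. BTG2, an antiproliferative p53 target, gave -0.59 (-1.09 and -0.50, edgeR adjusted p = 0.0212), being lower in both. HSPA1B gave 0.63 (-0.17 and -0.81, edgeR adjusted p = 0.0155), with reads shared with HSPA1A. ANXA2 gave -0.39 (-0.31 and 0.08, edgeR adjusted p = 0.0309) and was not called at the lowest doses. Lowest-dose libraries also differ in treatment, which cannot be told apart from batch, and without the 5 libraries that stand apart 2847 of 18046 genes passed the same contrast.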

How the results depend on the processing

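No named gene changed direction while called under any alternative run. The count of 5848 genes called between the vehicles was 5850 with DESeq2 size factors, 4142 with DESeq2's Wald test, 6259 without a filter on low counts, 5572 where both batches had to average 1 CPM, 1154 with all 96 libraries in 1 fit and 4392 to 6681 with 1 library left out. The 407 genes called at least 2-fold became 747 without the filter, 150 where both batches had to average 1 CPM, 252 with all 96 libraries in 1 fit, 282 with DESeq2's Wald test and 386 to 527 with 1 library left out. Which genes were shared between these counts was not examined. Replicate numbers do not pair the libraries: deviations of same-numbered libraries from their group means correlated at -0.00711, -0.00843 and -0.0478, and with the replicate block 5298 genes were called, 405 of them at least 2-fold. The lowest-dose count of 6186 was 8469 without the libraries that stand apart, 6099 with the replicate block and 1996 to 5703 with 1 replicate number left out. Of the 20 most expressed genes, 6 stayed when mitochondrially encoded genes were left out, which removes the others by construction. The difference in mitochondrial share, -5.08 percentage points, ranged from -6.54 to -3.96 with 1 library left out. The 131 genes whose vehicle and lowest-dose differences differed became 2847 without the libraries that stand apart, an alternative chosen after seeing the data, as was the length of the longest transcript (19 of 20 genes shared). The cause of these shifts was not tested. For 250 genes, 3202 alternative values were computed, of which 2977 kept their side of the threshold, 205 lost a call (120 of them with all 96 libraries in the fit, 17 with DESeq2's Wald test) and 20 gained one. Of the 250 genes, 115 kept their side of the threshold under every alternative. Of 37 lists with tested members, 11 had a median that always moved by less than the spread between libraries. Over the reported fit and its alternatives, the median log2 difference of mesenchymal genes ran from -0.50 to -0.46. It ran from -0.50 to -0.32 for TGF-beta targets and 0.36 to 0.46 for epithelial genes. NRF2 targets gave 0.24 to 0.26 and mitochondrially encoded genes -0.73 to -0.42. Wider ranges were 0.39 to 0.76 for hepatocyte, 0.36 to 0.67 for gastric and intestinal and 0.57 to 1.29 for secretory airway genes. Fibroblast markers ran from -0.67 to 0.08, across 0. Depth limits the genes near the floor: 3 counts over a batch stand for 0.0388 CPM in Batch2 and 0.0437 CPM in Batch1.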

Other observations

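Some keratins and genes of mucus secretion that are in no list are given here. They were chosen after their values were seen and are not tested as a group. KRT81, the most abundant keratin per length, had 5600, 5357 and 5634 CPM in Batch2 vehicle libraries and 4039, 4184 and 4075 CPM in Batch1 vehicle libraries (log2 0.43 ± 0.04). KRT10 (log2 0.38 ± 0.09), KRT83 (log2 1.04 ± 0.20) and KRT86 (log2 1.03 ± 0.10) were also higher in Batch2, though KRT83 and KRT86 share sequence with KRT81 and are uncertain. KRT80 was lower, at 86.8, 86.7 and 84.3 CPM in Batch2 and 129, 123 and 136 CPM in Batch1 (log2 -0.59 ± 0.05), and KRT222 was not called. SPDEF, a transcription factor of goblet cells, averaged 13.8 ± 0.62 CPM in Batch2 and 5.36 ± 0.275 CPM in Batch1 (log2 1.36, edgeR adjusted p = 4.52e-07). FCGBP, a protein of mucus, averaged 20.6 ± 0.992 CPM in Batch2 and 7.57 ± 0.0727 CPM in Batch1 (log2 1.45, edgeR adjusted p = 6.8e-08). In the lowest-dose libraries the log2 differences of SPDEF and FCGBP were 1.13 and 0.70.

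The highest-expressed of the genes at least 2-fold lower in Batch2 under a clone name was the antisense gene RP11-386G11.10, at 131 ± 20.3 CPM in Batch2 and 438 ± 77.5 CPM in Batch1 (log2 -1.74, edgeR adjusted p = 1.27e-06). In the lowest-dose libraries its log2 difference was 1.25. As an antisense gene counted without stated strand, its values are uncertain.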
